A study of Mus musculus with 2 samples.

Results

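Cycling macrophages of the pressure-loaded mouse heart were selected on measured values as cells rich in the transcripts of complement C1q that also carried transcripts of dividing cells. A barcode was a member when it had at least 500 unique molecular identifiers (UMIs, each marking 1 captured transcript), 200 genes or more and no more than 10% of its UMIs from mitochondrial genes. Its C1qa, C1qb and C1qc together had to make up at least 0.3% of UMIs, and its Mki67, Top2a and Birc5 together had to reach at least 2 UMIs. By this rule 714 of 12407 kept cells were members, 241 in the control library and 473 in the LOY library. The comparison population was the 8544 C1q-high cells below 2 UMIs of the selecting genes, 4732 for the control and 3812 for the LOY library.

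The study transplanted marrow into mice and profiled the donor-derived leukocytes of the heart after TAC, a constriction of the aorta that raises the pressure load on the left ventricle. The control group received control marrow and the LOY group marrow labelled as having lost the Y chromosome, and both groups underwent TAC. Viable CD45+ RFP+ cells were sorted from digested left ventricles, so leukocytes without the red fluorescent marker of the transplant, including the host's own, were not sampled. Cells of 3 mice were pooled in each group and about 8000 cells entered each 10x Genomics 3' library. The labels give no age, interval after TAC, promoter or construct for these mice, and the number of marrow donors is not given in the sources used here. Each group is 1 library, and the effect of LOY marrow cannot be told apart from any other difference between the pools. No test between groups was possible, and the 95% intervals given are exact and cover counting error only.

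Tissue macrophages can renew themselves by division within the heart as well as by recruitment of blood monocytes. A dividing cell first commits to the cycle through cyclin D and E2F transcription factors, copies its DNA in S phase with helicases, polymerases and freshly made nucleotides and histones, and then builds a spindle and divides in G2 and M phase. Genes of the last step are held silent in resting cells by the DREAM complex of E2F, pocket and MuvB proteins, and many carry in their promoters a cell cycle homology region (CHR) and CCAAT boxes, bound by MuvB and NF-Y.

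The control library held 7276 barcodes and 42640861 UMIs, and the LOY library 5475 barcodes and 18710715 UMIs, of which 6992 and 5415 barcodes were kept. The LOY cells were shallower, with a median of 5177 UMIs per member against 10179 in the control library. Members were deeper than the other C1q-high cells of their own library, which had medians of 3112 and 5786 UMIs. The libraries shared 31 barcode sequences, 2 of them among the members. The 4 Y-linked genes Ddx3y, Eif2s3y, Kdm5d and Uty went with the labels in the members, summing to 108 CPM (UMIs of a gene scaled to a common library total of 1000000) for the control and 12.9 CPM for the LOY library. After every cell had been thinned to 1500 UMIs, 14.2% of control members (10.1% to 19.3%) and 2.58% of LOY members (1.34% to 4.45%) had a Y-linked UMI. In the other C1q-high cells these shares were 14.9% and 1.85%, with intervals that overlapped those of the members.

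The promoters of the 5 marker genes are shown as a description, and 4 of the 5 carried the CHR letters. Mki67, Top2a and Birc5 were high in members by the rule itself. Mki67 encodes the nuclear protein Ki-67 that coats mitotic chromosomes, Top2a the topoisomerase that untangles DNA, Birc5 survivin of the chromosomal passenger complex, Cenpf a kinetochore protein and Ube2c the ubiquitin-conjugating enzyme of the anaphase-promoting complex. Sequences are from RefSeq on the build GRCm38.p6, run 5' to 3' on the gene's strand from 125 bases before to 25 bases after the annotated start, and have the matches to TTTGAA or TTCGAA (CHR) and to CCAAT in capitals, on both strands.
Mki67: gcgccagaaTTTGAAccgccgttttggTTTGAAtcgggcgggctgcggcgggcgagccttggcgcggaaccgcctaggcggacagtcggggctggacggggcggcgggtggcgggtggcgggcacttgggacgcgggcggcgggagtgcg
Top2a: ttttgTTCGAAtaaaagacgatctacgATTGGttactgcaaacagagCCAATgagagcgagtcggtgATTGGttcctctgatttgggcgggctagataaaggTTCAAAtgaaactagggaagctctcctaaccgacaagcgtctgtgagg
Birc5: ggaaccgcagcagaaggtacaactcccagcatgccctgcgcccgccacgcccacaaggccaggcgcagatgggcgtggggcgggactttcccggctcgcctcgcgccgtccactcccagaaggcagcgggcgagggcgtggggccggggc
Cenpf: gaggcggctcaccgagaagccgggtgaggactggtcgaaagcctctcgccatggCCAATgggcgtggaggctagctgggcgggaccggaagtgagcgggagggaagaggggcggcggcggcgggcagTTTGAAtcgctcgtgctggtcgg
Ube2c: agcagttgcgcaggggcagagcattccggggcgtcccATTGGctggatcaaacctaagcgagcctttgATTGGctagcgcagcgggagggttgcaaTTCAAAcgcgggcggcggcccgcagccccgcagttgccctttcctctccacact
The windows lie at chr7:135716355-135716504 (Mki67, minus strand), chr11:99024165-99024314 (Top2a, minus strand), chr11:117849112-117849261 (Birc5, plus strand), chr1:189688062-189688211 (Cenpf, minus strand) and chr2:164769804-164769953 (Ube2c, plus strand). Mki67 held CHR letters only, Top2a, Cenpf and Ube2c held both motifs, and the Birc5 window held neither, which says only that these letters are not in this stretch. Across 32851 promoters of the same length, 9.20% held a CHR match and 24.1% a CCAAT match. Of the 42 genes of the G2/M list (48 genes) with a promoter in the table, 61.9% held a CHR match, 73.8% a CCAAT match and 52.4% both, against 2.28% with both over all promoters. The matches capitalized here do not overlap one another. Of 25 further chromosome segregation genes with a promoter in the table, 48% held a CHR match and 56.0% a CCAAT match. Only 31 of the 43 S-phase genes had a promoter in the table, fewer than 80% of them, so a count over that list is void and none is given. Whether either motif is particular to the G2/M list among cell cycle genes was therefore not tested. A match is a description of letters and not a site.

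The selecting values are described here and support nothing else. Members carried a median of 11 UMIs of the 3 selecting genes in the control library (quartiles 3 and 25) and 8 in the LOY library (4 and 15). Mki67 reached 592 CPM in control and 745 CPM in LOY members, Top2a 545 and 740.4 CPM, and Birc5 361 and 473 CPM. Cenpf and Ube2c did not enter the rule, and they stood at 221 and 281 CPM in control members and 311 and 318 CPM in LOY members. In the other C1q-high cells these latter 2 genes lay between 0.930 and 4.64 CPM. A Cenpf UMI was seen in 52.3% of control and 50.7% of LOY members, and a Ube2c UMI in 54.4% and 50.3%, so about as many members lacked each gene as held it.

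The edge of the rule was not sharp. Cells with exactly 2 selecting UMIs numbered 48 for the control and 65 for the LOY library, and the summed G2/M list stood at 1047 and 1995 CPM in them. Cells with 1 selecting UMI, just outside, stood at 832 and 1123 CPM, and cells with none at 625 and 589 CPM. The 127 control and 198 LOY members with 10 or more selecting UMIs reached 9031 and 9211 CPM. The S list went from 598 CPM in control cells with none to 1151 CPM with 1 and 1459 CPM with 2 selecting UMIs, and from 749 to 1923 and 2462 CPM in LOY cells. Members at the C1q limit were few, with 4 control and 0 LOY members between 0.3% and 0.4% of UMIs.

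Members bore the transcripts of macrophages. All 12 genes of the macrophage list exceeded 10 CPM in the members of both libraries, among them Lyz2 (lysozyme) at 9549 CPM in control and 6453 CPM in LOY members, Csf1r (the receptor for the survival factor CSF1) at 542 and 831 CPM, and Cd68 (a lysosomal membrane protein) at 509 and 707 CPM. Relative to the other C1q-high cells the list was slightly lower, with median log2 ratios of -0.36 for the control and -0.30 for the LOY library. The highest ratios were those of Itgam, an integrin (-0.087 and 0.073), Cd68 (-0.047 and -0.038) and Mrc1, the mannose receptor (-0.26 and -0.052). The lowest were those of Lyz2 (-0.58 and -0.83) and Mertk, a receptor for dying cells (-0.50 and -0.66). All log2 ratios are of CPM + 10, a scale that understates the change of low genes, and a gene counts as measured where it reached 10 CPM in 1 of the groups compared.

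Cells that were cycling by the rule made up 4.85% of C1q-high cells in the control library (241 of 4973, 4.27% to 5.48%) and 11.0% in the LOY library (473 of 4285, 10.1% to 12%). The share was 2.28 times as high in the LOY library (1.95 to 2.67), and its cells were the shallower ones. With every cell thinned to 1500 UMIs, which left out 78 control and 254 LOY cells, the shares were 2.61% (2.19% to 3.1%) and 7.47% (6.67% to 8.32%), a ratio of 2.86 (2.31 to 3.54). Among cells of 2000 to 4000 UMIs it was 1.16% for the control and 5.30% for the LOY library, among cells of 4000 to 6000 UMIs 1.20% and 18.4%, and among cells of 6000 to 10000 UMIs 5.19% and 33.9%. Above 10000 UMIs, where 121 of the 241 control members lay, it was 16.7% (14.1% to 19.7%) and 35.8% (24.5% to 48.5%). Below 2000 UMIs the shares were 2.52% (0.523% to 7.19%) and 2.10% (1.12% to 3.56%), so no difference was detectable there. Bins of equal UMIs hold unlike parts of the libraries and do not match cells by depth within their library. The other C1q-high cells had quartiles of 4392 and 7827 UMIs for the control and 2343 and 4234 for the LOY library.

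The C1q-low cells, which include lymphocytes, neutrophils and monocytes, were counted by the same limit for comparison. Whether those that passed it were dividing was not tested, so their shares are not a floor of false calls. They held 2 or more selecting UMIs in 2.63% of control and 2.48% of LOY cells at full depth, a ratio of 0.944 (0.575 to 1.52). Thinned, their shares were 1.10% and 2.47%, a ratio of 2.24 (1.11 to 4.46), on 21 and 17 cells. In both libraries and at both depths the C1q-high share lay above the C1q-low one. The share among all kept cells was 3.45% for the control and 8.73% for the LOY library.

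**Figure D1:**
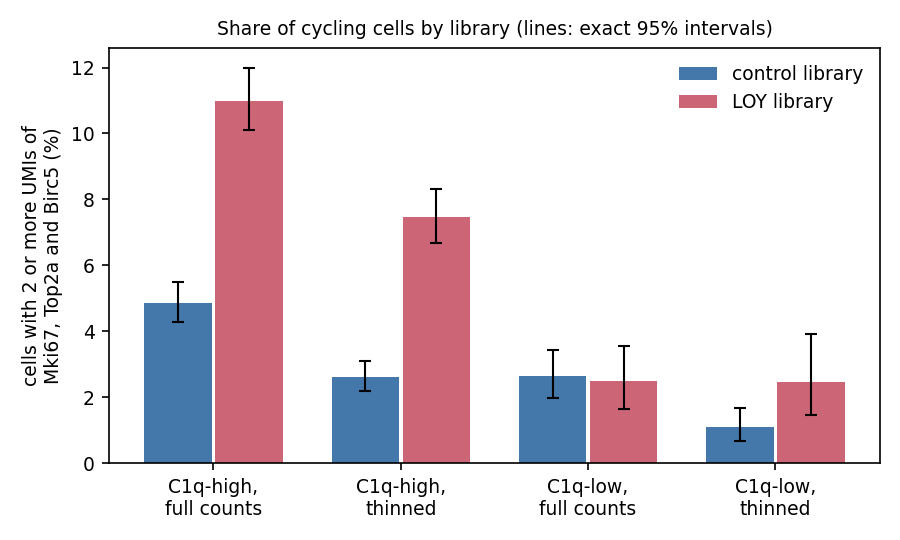
Share of cells with 2 or more UMIs of Mki67, Top2a and Birc5 (y axis, %) among C1q-high and C1q-low cells, at full depth and thinned to 1500 UMIs. Bars are single libraries and the lines are exact 95% intervals; the LOY bar of C1q-high cells stands at 11.0% at full depth and 7.47% thinned, above the control bars of 4.85% and 2.61%.

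Most members held more UMIs of the G2/M list than of the S list, in like shares in both libraries. Members with more UMIs of the 43-gene S list than of the 48-gene G2/M list, which leaves out the selecting genes, are called S-leading, and they made up 28.2% of control members (68 of 241, 22.6% to 34.4%) and 29.0% of LOY members (137 of 473, 24.9% to 33.3%). In thinned cells the shares were 26.4% and 30.0%. Mki67, Top2a and Birc5 themselves peak late in the cycle, so the rule favours G2/M cells, and 21.2% of control and 18.8% of LOY members had sums within 1.5-fold of the line between the classes. The median member drew 0.333 of its UMIs of both lists from the S list in the control (quartiles 0.147 and 0.560) and 0.319 in the LOY library (0.119 and 0.560). Some cells below the selecting threshold were as rich in S-phase transcripts as the median S-leading member. Its S-list share of UMIs was reached by 11 of 4732 other C1q-high control cells (0.232%, 0.116% to 0.416%) and 47 of 3812 LOY cells (1.23%, 0.907% to 1.64%). Being a median, this share was reached by only part of the 68 control and 137 LOY S-leading members. The rule thus left out S-rich cells in both libraries.

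**Figure D2:**
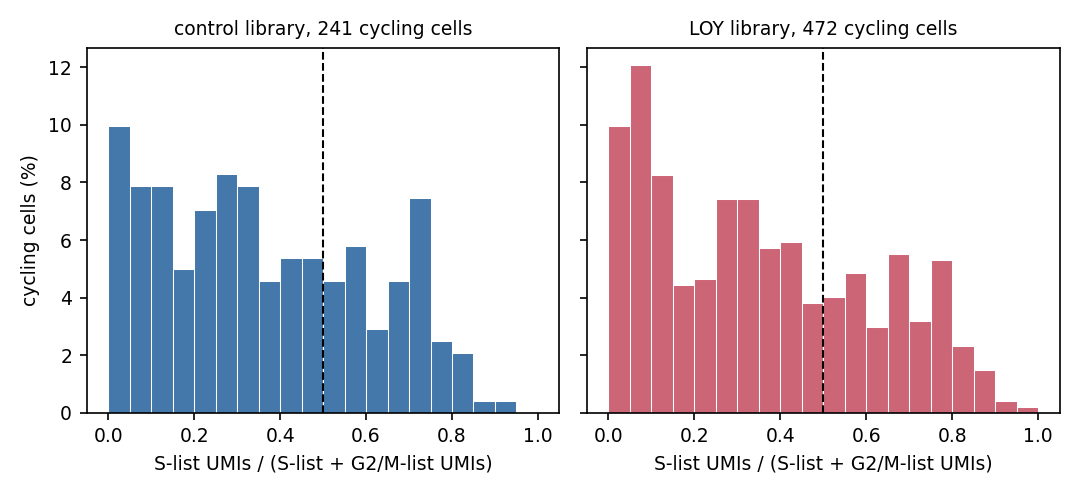
Distribution of members by the fraction of their phase-list UMIs that came from the S list (x axis, 0 is all G2/M and 1 is all S) with the percentage of members on the y axis, 1 panel per library. The dashed line marks equal sums; 28.2% of control and 29.0% of LOY members lie above it, and the distribution is continuous across the line in both.

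Many cell cycle genes outside both lists also differed between S-leading and other members. Ccnd1, the cyclin that starts the cycle, was 543 CPM in S-leading and 172 CPM in the other control members, a ratio of 3.16 (2.73 to 3.66), and 431 against 202 CPM in the LOY library, a ratio of 2.14 (1.84 to 2.48). E2f1, an activating E2F factor, stood at 95.3 against 21.4 CPM in control and 144 against 40.2 CPM in LOY members. Ccne1 (cyclin E1, which drives entry into S phase), Mybl2 (a MuvB partner), Lig1 (the ligase that joins Okazaki fragments) and Dut (which clears dUTP) were also higher in S-leading members of both libraries, with ratios from 1.92 to 3.83 whose intervals excluded 1.

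Mitotic genes were lower in S-leading members. Ccnb1 (cyclin B1, the partner of Cdk1 at mitotic entry) was 4.71 CPM in S-leading and 68.1 CPM in the other control members, and 20.0 against 139 CPM in the LOY library. Plk1 (a mitotic kinase) had S-leading to other ratios of 0.135 and 0.123, Prc1 (which bundles the central spindle) 0.223 and 0.214, and Ccna2 (cyclin A2, present from S phase to mitosis) 0.324 and 0.359. The summed histone transcripts were lower in S-leading members too, at 629 against 3527 CPM for the control and 2311 against 5741 CPM for the LOY library, with ratios of 0.178 (0.163 to 0.195) and 0.403 (0.383 to 0.423). New histones are made in S phase, so the S-leading class is named by its list alone. The phase of each cell was not tested. Other genes did not differ in the same way in both libraries. Tk1 (thymidine kinase) had ratios of 0.788 (0.635 to 0.972) for the control and 1.19 (0.957 to 1.48) for the LOY library, and E2f7 0.343 (0.140 to 0.729) and 1.35 (0.695 to 2.54). Pclaf, the PCNA-binding protein, had 0.874 and 1.07 and Cdk6 1.05 and 1.16, with intervals that included 1.

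Across genes, 9.11% of the 8121 genes measured in the control library were over 1.5-fold higher in members than in other C1q-high cells and 1.26% over 1.5-fold lower, and in the LOY library 9.35% and 1.69% of 7862 genes. Of the higher genes, 740 for the control and 735 for the LOY library, 570 were shared (77.0% and 77.6% of each list). Of the lower genes, 102 and 133, 43 were shared (42.2% and 32.3%). The median log2 ratio over all measured genes was 0.062 and 0.048. The cells were chosen by Mki67, Top2a and Birc5 in this same contrast, so genes of the cycle had to be high to some degree and their ratios are given as a description.

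Of the S-phase genes, 42 of 43 measured were over 1.5-fold higher in control members and 38 of 42 in LOY members, with median log2 ratios of 1.62 and 1.31. The highest were Rrm2, the small subunit of ribonucleotide reductase (90.2 against 0.385 CPM in the control, 57.2 against 1.27 CPM in the LOY library), Clspn, an adaptor of the replication checkpoint (log2 ratios 2.96 and 2.76), and Uhrf1, which guides maintenance methylation (3.01 and 2.52). Casp8ap2 was among the lowest (0.61 and 0.28). The 6 Mcm genes of the replicative helicase were each over 1.5-fold higher in both libraries. They summed to 536 CPM in control and 663 CPM in LOY members, against 112 and 221 CPM in the other cells. The whole S list stood at 3172 CPM in control and 3176 CPM in LOY members, and at 633 and 844 CPM in the other cells, so the libraries differed in their non-members.

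Of the G2/M genes, all 46 measured for the control and all 47 measured for the LOY library were over 1.5-fold higher in members, with medians of 2.66 and 2.56. Ube2c, Cenpf and Cdca8 (borealin, a partner of survivin) led, the last at 179.6 against 3.56 CPM for the control and 285 against 7.11 CPM for the LOY library. The lowest were Ctcf, a chromatin organizer that resting cells also use (log2 0.73 and 0.97), and Psrc1, a microtubule-binding protein (1.5 and 0.60). Among 28 further segregation genes, 26 of 27 measured for the control and 26 of 28 for the LOY library were over 1.5-fold higher. Stmn1, which destabilizes microtubules, was the most abundant of the leading ones at 1466 against 36.8 CPM and 2011 against 122 CPM. Pttg1 (securin), the lowest of them, was no higher in members, at 51.6 against 68.5 CPM for the control and 56.1 against 65.1 CPM for the LOY library.

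Genes that make DNA precursors and new chromatin were high as well. Of the nucleotide and DNA synthesis genes outside the S list, 19 of 21 measured for the control and 17 of 21 for the LOY library were over 1.5-fold higher. Tk1, the thymidine kinase of the salvage route, stood at 169.9 against 2.82 CPM and 146 against 6.66 CPM, while Shmt2 and Mthfd1 of one-carbon metabolism had log2 ratios of 0.24 to 0.41. All 12 chromatin and nuclear protein genes were over 1.5-fold higher in both libraries. H2afx (the histone variant of DNA damage signalling), Lmnb1 (lamin B1) and Ezh2 (the methyltransferase of Polycomb complex 2) led with log2 ratios between 2.41 and 3.36, and Ranbp1 and Suz12 were lowest at 1.05 to 1.21.

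Transcripts of replication-dependent histones, which are made in S phase and mostly lack a poly(A) tail, were captured in members nonetheless. The list summed to 2605 against 243 CPM for the control and 4702 against 273 CPM for the LOY library, and 23 of 24 and 26 of 27 measured genes were over 1.5-fold higher. Hist1h1b (linker histone H1.5) had the highest log2 ratio of all genes, 6.16 and 6.44, at 816 against 1.54 CPM and 1201 against 3.97 CPM. Hist1h2bc was the lowest, at 116 against 106 CPM and 56.8 against 76.5 CPM. Many of these genes are near-identical copies, so the value of a single gene is uncertain. Hist1h2ap stood at 275 CPM in control and 12.1 CPM in LOY members, while Hist1h2an went the other way, with 7.49 and 84.5 CPM.

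**Figure D3:**
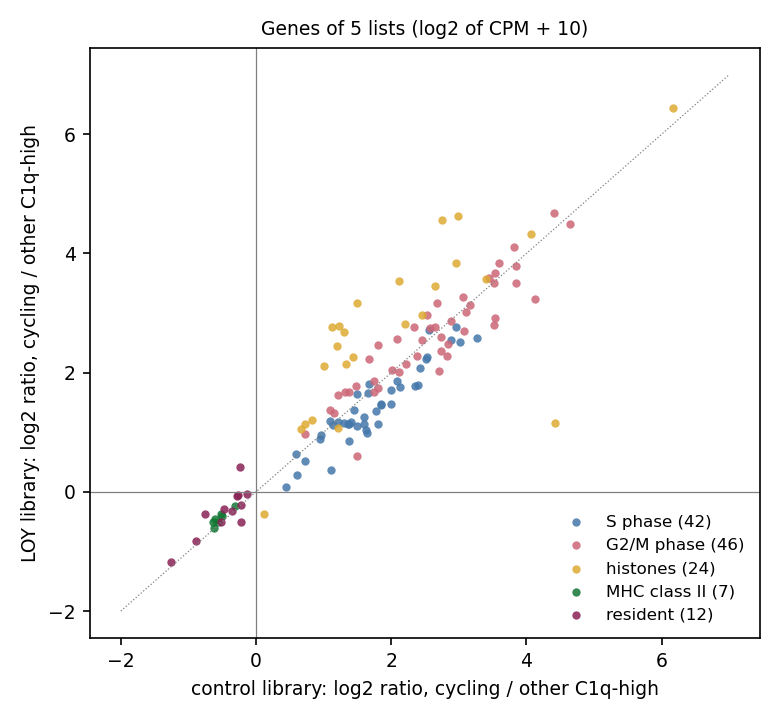
Each point is a gene of 1 of 5 lists measured in both libraries, with the log2 ratio of members to other C1q-high cells in the control library (x axis) and in the LOY library (y axis), on CPM + 10. The 46 G2/M and 42 S-phase genes all lie above 0 in both libraries, 21 of the 24 histone genes lie above the dotted line of equal ratios, and the 7 MHC class II genes lie below 0 in both.

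The regulators that set the pace of the cycle were of unequal height. Ccna2 was 96.9 CPM in control and 84.1 CPM in LOY members and below 1 CPM in the other cells of both libraries. Ccnb1 stood at 47.9 CPM in control and 103 CPM in LOY members, and Plk1 at 37.8 and 67.1 CPM. Ccne1 reached 20.6 CPM in control members and 18.2 CPM in LOY members, against 0.481 and 2.10 CPM elsewhere. Cdk2 (the partner of cyclins E and A) had member to other ratios of 2.87 and 3.07, and Cdk4 (the partner of cyclin D) of 1.93 and 1.99. Ccnd1 and Ccnd2 were lower in members, with ratios of 0.816 (0.758 to 0.878) and 0.672 (0.588 to 0.766) for the control and 0.883 and 0.811 for the LOY library, Ccnd3 was higher at 1.65 and 1.47, and Cdk6 had intervals that included 1. In all, 7 of 10 genes for the control and 6 of 10 for the LOY library were over 1.5-fold higher on the scale of CPM + 10, and none over 1.5-fold lower.

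Of the CDK inhibitors, the INK4 genes Cdkn2c (p18) and Cdkn2d (p19) were high in members of both libraries. Cdkn2c stood at 98.4 against 19.9 CPM in the control, a ratio of 4.94 (4.26 to 5.72), and 43.2 against 5.31 CPM in the LOY library, 8.13 (5.99 to 11.1). Cdkn2d stood at 93.9 against 25.4 CPM and 98.5 against 17.1 CPM. Both were concentrated in the members that were not S-leading, with S-leading to other ratios of 0.329 and 0.313 for the control and 0.460 and 0.234 for the LOY library. In the control cells of 10 or more selecting UMIs Cdkn2c reached 148 CPM against 19.9 CPM in those with none. Cdkn1a (p21, which blocks CDK2 and is induced by p53) was 676 against 423 CPM in the control, a ratio of 1.60 (1.52 to 1.68), and 386 against 376 CPM in the LOY library, 1.03 (0.958 to 1.10). Cdkn2a followed it with ratios of 1.76 (1.45 to 2.13) and 1.03 (0.760 to 1.37), Cdkn1b (p27) had 1.14 and 1.28, the interval of Cdkn1c included 1 in both libraries, and Cdkn2b was below 3 CPM throughout.

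**Figure D4:**
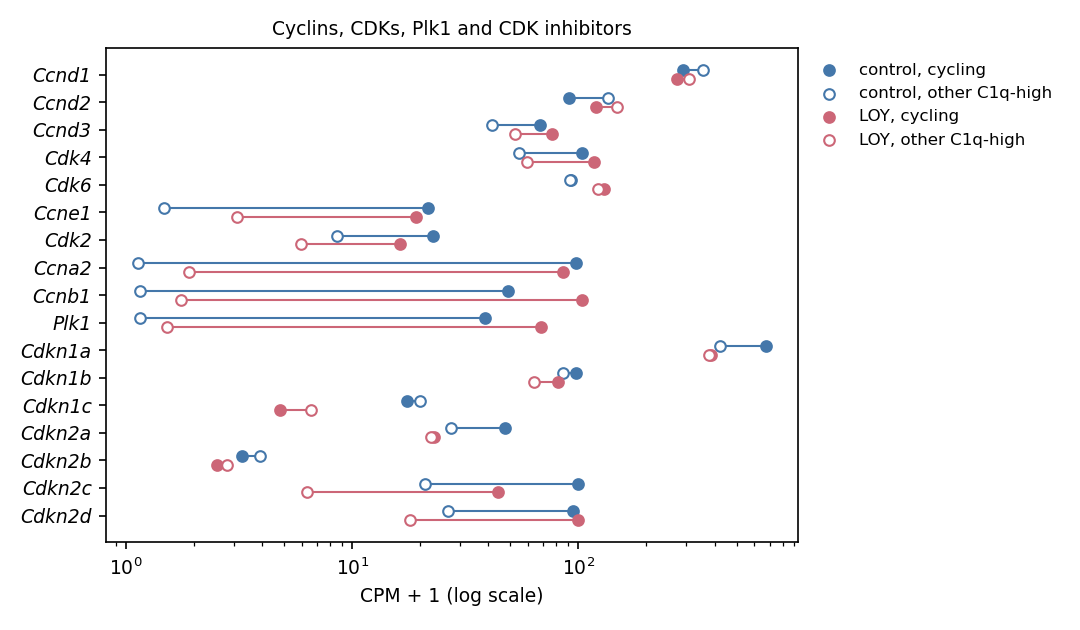
Level of the cyclin, CDK, Plk1 and CDK inhibitor genes (CPM + 1, log axis) in members (filled) and other C1q-high cells (open) of each library, joined by a line per gene. The longest lines are those of Ccna2, Ccnb1 and Plk1; Ccnd1 and Ccnd2 run the other way, and Cdkn2c and Cdkn2d are the inhibitors with the longest lines.

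Among the E2F, pocket protein and MuvB genes, 9 of 15 measured were over 1.5-fold higher in members of each library and none lower. Foxm1, the forkhead factor of mitotic genes, was 33.7 against 0.289 CPM for the control and 34.1 against 0.374 CPM for the LOY library. The repressor E2f7 was 21.7 and 17.4 CPM in members and rested on 2 and 3 UMIs elsewhere, with ratios of 338 (89.5 to 2860.2) and 77.6 (25 to 390.1). The activators E2f1 and E2f2 had ratios of 2.47 and 8.83 for the control and 2.06 and 3.45 for the LOY library, whereas the interval for E2f3 included 1 in both. The pocket protein Rbl1 (p107) was higher at 4.17 and 3.37, but Rb1 and Rbl2 (p130, the form of resting cells) had intervals that included 1, as did E2f4 and E2f5. Mybl2 was 70.0 and 10.7 times as high, and the MuvB subunits Lin9 and Lin54 stood 3.00 to 4.03 times as high. Lin37 had ratios of 1.53 (1.17 to 1.97) and 1.21 (0.947 to 1.54), and Lin52 rested on 15 and 5 UMIs in members. Tfdp1, the dimer partner of E2F, stood at 38.9 against 11.3 CPM and 27.7 against 9.81 CPM, and E2f6 had ratios of 2.38 and 2.06.

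Of the genes that tie macrophage division to growth factors or restrain it, none was over 1.5-fold higher in members. Over 1.5-fold lower were 2 of 12 measured for the control and 1 of 10 for the LOY library, against 1.26% and 1.69% of all measured genes. Csf1r had member to other ratios of 0.796 (0.754 to 0.839) for the control and 0.820 (0.784 to 0.858) for the LOY library, and Csf2ra, a subunit of the GM-CSF receptor, 0.986 and 0.996. Maf, a transcription factor that restrains macrophage self-renewal, had ratios of 0.790 for the control and 0.810 for the LOY library. Klf2 and Klf4 were lower, the latter being a factor linked to macrophage self-renewal, at 664 against 1125 CPM and 215 against 308 CPM in the control, and at 144 against 198 CPM and 76.2 against 129.6 CPM in the LOY library. Myc stood at 10.5 CPM in control and 4.17 CPM in LOY members with intervals of the ratio that included 1, as did Igf1r, and Tfec had 1.45 (1.05 to 1.98) and 1.31 (0.840 to 1.99). Igf1, a growth factor that macrophages release, was 0.618 and 0.678 times as high, Il4ra 0.789 and 0.828, and Csf2rb 0.740 and 0.647. Csf1 itself was below 6 CPM and Gata6 below 2 CPM throughout.

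Macrophage states were called in cells thinned to 1500 UMIs: at least 1 UMI of Lyve1 (a hyaluronan receptor of resident vessel-near macrophages), Spp1 (osteopontin) or Ly6c2 (a marker of fresh monocytes), or at least 1% of UMIs from H2-Aa, H2-Ab1, H2-Eb1 and Cd74 of MHC class II antigen presentation. The states overlap. In the Lyve1 state the cycling share was lower in the control library, 3.47% (2.37% to 4.89%) against 5.2% without it, a ratio of 0.668 (0.442 to 0.977), and in the LOY library the shares were 9.11% and 11.9%, a ratio of 0.767 (0.547 to 1.05). Cells of the MHC class II state were cycling in 4.10% against 8.89% in the control, a ratio of 0.462 (0.348 to 0.618), and in 9.88% against 12.4% in the LOY library, 0.795 (0.646 to 0.973). In both libraries the cells in none of these states had a higher cycling share than the rest, at 11.2% (47 of 418) against 4.29% for the control and 13.7% (224 of 1631) against 10.1% for the LOY library, with ratios of 2.62 (1.86 to 3.62) and 1.36 (1.13 to 1.64).

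The Spp1 state had unlike ratios in the libraries, whereas the control Ly6c2 cells were too few to tell, and the difference between libraries was not tested. In the control library 12.7% of the 118 Spp1 cells were cycling (15 cells, 7.29% to 20.1%) against 4.69% without Spp1, a ratio of 2.71 (1.49 to 4.57). In the LOY library 11.2% of 714 Spp1 cells were cycling against 11.6%, a ratio of 0.963 (0.747 to 1.23). The Ly6c2 state held 46 control cells, of which 4 were cycling (8.70%, 2.42% to 20.8%), so no difference from the 4.85% elsewhere was detectable. Its control ratio of 1.79 had an interval of 0.485 to 4.66, which holds the LOY ratio. Over the alternatives this control ratio ran from 0 to 2.82, and it was 0.830 with membership from thinned counts. Without cells bearing transcripts of other cell types 0 cycling cells were left in the control state. In the LOY library 6.54% of 321 Ly6c2 cells were cycling against 12%, a ratio of 0.545 (0.334 to 0.844), which was 0.326 without cells bearing transcripts of other cell types. With membership also taken from thinned counts, the LOY ratio for MHC class II was 0.907 (0.705 to 1.16), and the Lyve1 ratios were 0.380 (0.178 to 0.723) for the control and 0.566 (0.345 to 0.882) for the LOY library.

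Lymphocytes that passed the same limits gave a floor for these state calls, and the source of their transcripts was not tested. Among B, T and NK cells, 0.0895% carried a Lyve1 UMI and 1.88% an Spp1 UMI in the control library, and 0 and 1 of 104 did in the LOY library. The interval of the control Spp1 floor, 1.17% to 2.86%, holds the 2.21% (1.81% to 2.68%) of non-member C1q-high control cells in the Spp1 state, whereas 6.28% (3.55% to 10.1%) of control members were in it, so the 103 non-member cells behind the control ratio of 2.71 could not be told apart from background. A Ly6c2 UMI was seen in 1.12% of control B cells (0.486% to 2.20%) and in 0.902% (0.651% to 1.22%) of non-member C1q-high control cells. The control Ly6c2 state of non-members could thus not be told apart from its floor, and the source of these UMIs was not tested. The LOY library held 15 such B cells, too few for a floor. The MHC class II limit was passed by 3.22% of T and NK cells for the control and 18.0% (10.6% to 27.5%) for the LOY library, against 35.0% of the LOY non-members, and the part of free RNA in the LOY state was not tested. These lymphocytes had medians of 2025 to 3832 UMIs and the C1q-high cells 5962 and 3361.

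**Figure D5:**
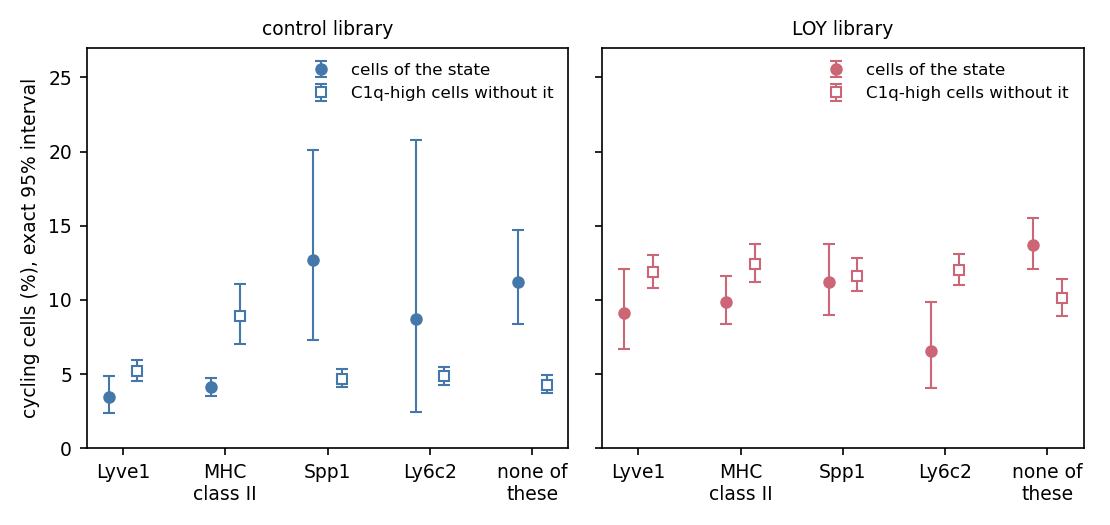
Percentage of cycling cells (y axis) among C1q-high cells with a state (filled circles) and without it (open squares), with exact 95% intervals, 1 panel per library. In the control panel the MHC class II point (4.10%) lies below its square (8.89%) and the Spp1 point (12.7%) above (4.69%); in the LOY panel the Ly6c2 point (6.54%) lies below its square (12%) and the Spp1 point (11.2%) is close to its square (11.6%).

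Seen from the members, 70.3% of control and 29.4% of LOY members were in the MHC class II state, 13% and 9.23% in the Lyve1 state, 6.28% and 17.2% in the Spp1 state and 1.67% and 4.51% in the Ly6c2 state. A further 19.7% of control and 48.1% of LOY members were in none. At full depth 34.4% of control and 16.3% of LOY members had a Lyve1 UMI, 18.3% and 34.0% an Spp1 UMI and 4.56% and 9.09% a Ly6c2 UMI. The non-members of each library differed in the same direction, with 84.4% and 35.0% in the MHC class II state and 2.21% and 17.8% in the Spp1 state. In no state did the S-leading share have an interval apart from that of the remaining members of the library. S-leading cells made up 45.2% (27.3% to 64.0%) of the 31 control Lyve1 members against 26% (20.1% to 32.5%) of the rest, and 39.5% (25% to 55.6%) of the 43 LOY Lyve1 members against 28.1%. Of the 15 control Spp1 members 1 was S-leading, and of the 80 LOY ones 24.

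The genes of each state behaved likewise in the summed counts. MHC class II transcripts were lower in members, with H2-Eb1 at 6302 against 9711 CPM and H2-Ab1 at 5369.8 against 8339 CPM in the control, and 1127 against 1714 CPM and 1382 against 1965 CPM in the LOY library. The list's median log2 ratio was -0.54 and -0.46, and 3 of 8 and 1 of 7 measured genes were over 1.5-fold lower. The highest were Ciita, the master activator of the group (-0.31 and -0.24), H2-DMa (-0.52 and -0.37) and H2-DMb1 (-0.50 and -0.41), the latter 2 being peptide exchangers. Of the resident macrophage genes, 3 of 12 for the control and 2 of 12 for the LOY library were over 1.5-fold lower. Vsig4, a complement receptor, stood at 20.2 against 62.2 CPM and 18.6 against 54.9 CPM, with 57.4% of the control UMIs in 1 cell, and Lyve1 at 144 against 275 CPM and 120.1 against 220 CPM. Mgl2, a lectin, was the only gene of this list whose intervals lay on opposite sides of 1, at 391 against 466 CPM for the control and 190.2 against 141 CPM for the LOY library, whereas Cbr2, a carbonyl reductase of resident cells, had log2 ratios of -0.13 and -0.031.

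Apoe, Selenop and C1q went down step by step with the number of selecting UMIs, and the genes that define the states did not. Apoe (apolipoprotein E) stood at 23467 CPM in control cells with none, 20112 with 1, 16471 with 2 or 3, 14259 with 4 to 9 and 12123 CPM with 10 or more. In the LOY library it went from 40745 CPM through 29729.8, 21590.4 and 21449 to 18357 CPM. Selenop, a selenium carrier, went from 2346 to 1169.7 CPM and from 1468 to 694 CPM between the ends of this range, and C1q, which entered the rule, from 22419 to 16991 CPM and from 27753 to 21829 CPM. Lyve1 was lowest in cells with 10 or more, at 108 CPM against 276 CPM in control cells with none and 99.5 against 216 CPM in the LOY library, but it had no steady order between these ends. Spp1 went through 32.4, 20.4, 119, 107 and 42.5 CPM in the control, and stayed between 232 and 356 CPM in the LOY library. Ly6c2 went through 22.9, 5.61, 69.3, 2.32 and 27.9 CPM in the control, and was highest in LOY cells with none, at 234 CPM. MHC class II also had no such order, since control cells with 4 to 9 selecting UMIs were lowest at 22259 CPM and those with 10 or more stood at 34211 CPM. Ccr2, a chemokine receptor of recruited cells, stayed between 304 and 359 CPM for the control and between 212 and 262 CPM for the LOY library.

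The lipid-associated list had median log2 ratios of 0.012 for the control and -0.47 for the LOY library. Spp1 stood at 71.9 against 31.6 CPM for the control and 287 against 352 CPM for the LOY library, but 32.8% of the control UMIs came from 1 cell. Gpnmb at 24.3 against 1.32 CPM in the control rested wholly on 1 cell, and 1 cell gave 53.5% of the control Fabp5 UMIs (159 against 49.8 CPM, and 95.1 against 166 CPM in the LOY library). The lowest genes were Apoe and Cd63, a vesicle protein (log2 -0.80 and -0.73). Of the recruited monocyte genes, Fn1 (fibronectin) was higher in both libraries at 73.4 against 44.9 CPM and 119.7 against 84.4 CPM, and Ccr2 had ratios of 0.979 (0.914 to 1.05) and 0.927 (0.850 to 1.01). Ly6c2 was 60.6 against 220.2 CPM in the LOY library, and 34.1 against 21.8 CPM in the control with 45.1% from 1 cell, where Plac8 had 57.8% from 1 cell. Ifitm6, an interferon-inducible membrane gene, was lower in both (log2 -0.82 and -0.73).

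Besides these, the genes with the lowest member to other ratios in both libraries were Slfn5, Ccl8, Ypel3, Ms4a7, Selenop, Lifr and Tmem86a, along with Vsig4, Lyve1 and Apoe. Ccl8, a chemokine of resident macrophages, stood at 476 against 914 CPM for the control and 526 against 1020.2 CPM for the LOY library. Ms4a7, a membrane gene of mature macrophages, stood at 507 against 875 CPM and 1029 against 1828 CPM, and Ypel3, which is linked to growth arrest, at 82.3 against 155 CPM and 83.0 against 186 CPM. At the other end, Pclaf stood at 306 against 1.28 CPM and 363 against 7.49 CPM, and Hmmr, Tpx2 and Cenpe of the spindle, which are on the G2/M list, were also among the 15 highest genes.

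The interferon list had median log2 ratios of -0.26 and -0.38, and its highest gene Cxcl10 stood at 278 against 149 CPM in the control (21.3% from 1 cell) and 269 against 225 CPM in the LOY library. The glycolysis list had medians of 0.17 and 0.16, led by Pgk1 (132 against 77.0 CPM, 169.8 against 114 CPM) and Gapdh (1202 against 763 CPM, 2009.7 against 1429 CPM). The chemokine list had medians of 0.41 and -0.035, with Ccl2, which recruits monocytes, at 472 against 254 CPM and 148 against 104 CPM. The p53 targets had 0.35 and -0.28, with Gdf15 at 98.8 against 46.5 CPM for the control and 18.9 against 30.4 CPM for the LOY library, and Ccng1, a cyclin G, at 70.0 against 45.0 CPM and 41.7 against 48.7 CPM. The immediate early and stress list had -0.31 and -0.35, and the heat-shock genes Hspa1a and Hspa1b were lowest, at 399.7 against 896 CPM and 177 against 350.1 CPM for the control and at 142 against 216 CPM and 62.1 against 105 CPM for the LOY library. Hsp90aa1 was the highest of that list, at 732 against 641 CPM and 781 against 464 CPM. Of the 6 measured genes of the list around Tmem119, none passed 1.5-fold in either library, and Cx3cr1, the fractalkine receptor, stood at 360.4 against 361 CPM and 657 against 534 CPM.

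Between the libraries, 6.10% of 8180 measured genes were over 1.5-fold higher in LOY than in control members and 10.1% over 1.5-fold lower. Both libraries' cell cycle lists were of like level. The G2/M list summed to 6187 CPM in control and 6506 CPM in LOY members, with a median log2 LOY to control ratio of 0.14, and the S list had a median of 0.012. Within them Pcna (the polymerase clamp), Cdk1 (the mitotic kinase) and Aurkb (Aurora B) were lower in LOY members, at 189 against 346 CPM, 79.2 against 148 CPM and 35.6 against 74.9 CPM. Tubb4b, a tubulin of the G2/M list, was higher, at 588 against 279 CPM. Of genes outside these lists, Ccnb1 stood at 103 against 47.9 CPM and Incenp (a passenger protein) at 235 against 121 CPM. The replication-dependent histones were higher as a list, with 18 of 27 measured genes over 1.5-fold higher and 2 lower, and a sum 1.80 times as high (1.75 to 1.86), against 1.12 times in the other C1q-high cells.

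Differences of several macrophage programmes between the libraries' members were also seen between their non-members. In non-members 5.90% of 7745 measured genes were over 1.5-fold higher in the LOY library and 8.15% over 1.5-fold lower. MHC class II had a median log2 LOY to control ratio of -1.39 in members and -1.45 in the other C1q-high cells, with 7 of 8 and 8 of 8 measured genes over 1.5-fold lower. H2-Eb1 stood at 6302 CPM in control and 1127 CPM in LOY members. The immediate early and stress genes, which digestion of tissue also induces, had medians of -1.34 and -1.21, with 16 of 21 lower in members. Btg2, an early gene that restrains proliferation, stood at 955 CPM in control and 123 CPM in LOY members, and Zfp36, an mRNA decay factor, at 659 and 114 CPM. Tmem119 (12.4 and 87.1 CPM), Olfml3 (17.6 and 90.6 CPM), Pmepa1 (55.0 and 222 CPM) and Ctsd, a lysosomal protease (571 and 2023 CPM), were higher in LOY members, and their log2 ratios in non-members, 2.16, 1.89, 1.90 and 2.14, stood beside those in members, 2.12, 1.87, 1.84 and 1.81. Spp1 stood 4.0 times as high in LOY members (3.41 to 4.71), with a log2 ratio of 1.86 against 3.12 in non-members. The lipid-associated list as a whole had a median of 0.45 in members, with 5 of 12 genes over 1.5-fold higher and 3 lower, and 1.45 in non-members, and the members' value was 0.96 without cells bearing transcripts of other types. The recruited monocyte list had 0.66 and 0.70, with 5 of 8 genes over 1.5-fold higher in members, and the resident list -0.18 and -0.29, in which Stab1, a scavenger receptor, was higher in LOY members at 494 against 205 CPM.

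Other lists and genes had larger differences in members. The p53 targets had a median log2 LOY to control ratio of -0.67 in members, with 6 of 10 measured genes over 1.5-fold lower, and 0.029 in non-members, with 1 of 11 lower. The CDK inhibitors had -0.81, with 4 of 6 lower, and -0.38, with 2 of 6 lower, but not every gene followed the medians. Cdkn2c had log2 ratios of -1.03 in members and -0.97 in non-members, and Cdkn1c -0.94 and -0.89. Cdkn1b had -0.24 and -0.38, and Cdkn2d 0.062 and -0.38. Cdkn1a is on both the p53 target and the CDK inhibitor list. The histones had 0.87 over 27 measured genes in members and 0.40 over 8 in non-members, so these medians cover unlike sets of genes. Of the 15 genes highest in LOY members 8 were histones, among them Hist1h3c (57.3 and 239.8 CPM) and Hist1h2ab (71.5 and 300.1 CPM), which were below 3 CPM in the non-members of both libraries. Neutrophil genes had -1.55, with 4 of 4 lower, and 0.041, with 1 of 5 lower. Of single genes, Cdkn1a had a log2 LOY to control ratio of -0.79 in members and -0.16 in non-members, Gdf15 -1.91 and -0.48, and Cdkn2a -0.82 and -0.21. Ccnb1 had 0.97 and 0.081, although in non-members it was below 1 CPM in both libraries. Retnla, a secreted gene of alternatively activated macrophages, stood at 767 CPM in control and 65.2 CPM in LOY members, with 24.2% and 59.3% of its UMIs from 1 cell. Jchain, which marks antibody-secreting cells, had 379 CPM in control members from 1 cell alone, and the neutrophil genes S100a8 and S100a9 had 93.4% and 97.1% of their control UMIs in 1 cell. Cxcl9, an interferon-induced chemokine, stood at 122 and 12.9 CPM, with 41.0% and 58.8% from 1 cell. The members' difference from non-members in these contrasts was not tested. The fixed limit of 2 selecting UMIs fell on cells of unlike depth, so the member sets were unlike at their edge. The 70 control and 114 LOY members with 2 or 3 such UMIs had 1223 and 2375 CPM of the G2/M list. Their histones summed to 363 and 687 CPM, and those of members with 10 or more to 4140.3 and 7052 CPM. The part of this cut in the differences was not tested.

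Transcripts of other cell types were present at low level. At least 2 UMIs of the B cell, T cell, NK cell, neutrophil, cardiomyocyte, fibroblast or endothelial lists were seen in 49.8% of control and 17.8% of LOY members, against 35.5% and 15.8% of the other C1q-high cells, and members were also deeper. The 7 T cell genes summed to 62.1 CPM in control and 32.2 CPM in LOY members, against 21.2 and 7.64 CPM, and the 6 NK cell genes to 47.5 and 25.8 CPM, against 15.2 and 10.4 CPM. Cd3d, a defining T cell gene named after its values were seen, was detected in 7 control and 3 LOY members, and Cd4 in 0 and 2. B cell genes (55.0 and 21.6 CPM), fibroblast genes (9.73 and 4.93 CPM) and erythroid genes (4.12 and 1.89 CPM) were no higher in members than elsewhere in the control library beyond their intervals. Cardiomyocyte genes summed to 109 and 75 CPM in members against 107 and 150.4 CPM, endothelial genes to 49.0 and 9.85 CPM against 28.3 and 15.8 CPM, neutrophil genes to 171 and 19.7 CPM against 215 and 229 CPM, and dendritic cell genes to 33.7 and 7.58 CPM against 19.6 and 6.51 CPM. The part of these transcripts in the differences above was not tested beyond the values that follow. High doublet scores were found in 9.13% of control and 6.98% of LOY members, against 7.02% and 4.64% of the others. Without cells of 2 or more UMIs of other types, the cycling share was 3.81% for the control and 10.8% for the LOY library, and without the highest doublet scores 4.74% and 10.8%. The first of these filters is a fixed count in unthinned cells of unlike depth, and the part of depth in its result was not tested.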

How the data were processed

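Heart leukocytes were profiled in 2 libraries, 1 per group, each from 3 pooled mice. The authors deposited raw UMI counts per gene and cell for 32286 features, and per the submitters' processing notes these were made with Cell Ranger 5.0.0 on mm10, without further normalization. All columns belonged to the 2 samples. From these counts CPM were computed per gene over the summed cells of a group. The gene lists and the member rule were chosen with earlier results of these data known. Genes named in the text are the markers, the 15 highest and 10 lowest of a comparison among genes with at least 50 CPM in the higher group and 50 UMIs over both (mitochondrial, ribosomal-protein, haemoglobin, immunoglobulin, T cell receptor and unnamed genes left out), the 3 highest and 2 lowest of a list (for members against other cells, by the mean ratio of both libraries among genes measured in both) and, in full, the Y-linked genes, cyclins and CDKs, CDK inhibitors, E2F regulators and growth factor genes. Shares have exact Clopper-Pearson and ratios exact conditional 95% intervals. For shares across depths each cell was thinned to 1500 UMIs and shallower cells were left out. Doublets were scored with scrublet in scanpy 1.11.5 and kept, and the top 407 and 237 scores were removed as an alternative. Python 3.11.15, numpy 2.4.6, scipy 1.17.1 and pandas 2.3.3 were used, and the ratio and interval steps were tested on simulated data. Promoters came from RefSeq on GRCm38.p6. Alternatives varied the rule, the filters, doublets, thinning, the state limits and the CPM scale. With 1 library a group no model across samples could be fitted, and dendritic cell transcripts were not among those removed. The symbol Sepp1 had no match. Some genes that the naming rule covers are not reported here.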

Additional observations from a re-analysis of the deposited data

Results flagged for a closer look

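For 10 genes the difference between cycling and other C1q-high cells went opposite ways in the libraries, with both counting intervals away from 1 and at least 1.25-fold on each side. The share of all measured genes that passes these limits is not given here, so the count does not say whether this was common or rare. The difference between libraries was not tested. Each log2 ratio was above 0 in the control and below 0 in the LOY library. Among macrophage state genes these were Fabp5, a fatty acid carrier (1.5 and -0.74), Ly6c2 (0.47 and -1.70), Plac8 (0.40 and -0.73) and Syngr1 (0.53 and -0.46). In the control members 1 cell gave 53.5%, 45.1%, 57.8% and 44.8% of the UMIs of these genes. The p53 targets Gdf15 (0.95 and -0.48) and Phlda3 (0.48 and -0.50) were not held by 1 cell to that degree, with 20.1% and 4.21% of control UMIs. Cxcl9 had 0.51 and -0.85, with 41.0% from 1 control cell. The endothelial gene Fabp4 (0.46 and -0.40) and the cardiomyocyte genes Tnnt2 (0.64 and -0.66) and Myl7 (0.69 and -1.67) had 53.2%, 53.5% and 43.4% of control UMIs in 1 cell.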

How the results depend on the processing

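Of 220 alternative values for 20 results, 186 stayed within the counting interval or spread of the reported value, 34 moved and 0 reversed a direction that its interval set. With at least 1 UMI of the selecting genes the cycling shares were 9.29% and 16.8% (control and LOY), the S-leading shares 35.9% and 38.1%, and the control list medians 1.34 (S) and 2.07 (G2/M). With at least 4 UMIs the cycling shares were 3.44% and 8.38%, the LOY S-leading share 20.9%, the control G2/M median 2.93 and the LOY to control median of the lipid-associated list 0.90. Thinned, the cycling shares were 2.61% and 7.47%, and the control Lyve1 ratio 0.380. With at least 2000 UMIs the LOY share was 12.5%. Without cells bearing other cell types' transcripts the control share was 3.81%, the control MHC class II ratio 0.325, the Ly6c2 ratios 0 and 0.326, and the LOY to control medians 0.96 (lipid-associated) and 1.32 (recruited monocyte). With stricter state limits the control Lyve1 ratio was 0.304, and the LOY ratios were 0.596 (MHC class II) and 0.261 (Ly6c2). With C1q at 1% or more the lipid-associated median was 0.88, and with no filter on low values the monocyte median was 0.23. Adding 1 or 50 CPM gave S medians of 2.38 or 0.77 (control) and 1.99 or 0.69 (LOY) and G2/M medians of 4.52 or 1.25 and 4.16 or 1.29, as the added count itself sets the scale. The cause of the other shifts was not tested. No paired analysis was possible because each group is 1 library.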
